A study of Mus musculus with 25 samples.

Results

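The clustered replication-dependent histone genes were described at their promoters, with the peaks that ChIP-seq of the histone code reader Spin1 and of the histone mark H3K4me3 gave in cultured mouse myoblasts. Members were chosen by name. They are the protein-coding RefSeq genes whose symbol begins with Hist1h, Hist2h, Hist3h or Hist4h in the older naming, or that carry the matching newer H1f, H2ac, H2bc, H3c or H4c symbols. The rule found 67 genes among 21000 protein-coding genes with a curated transcript. Of these, 63 matched by their current symbol, and H4f16, H2bu2, H2aw and H4bc24 matched by an older symbol alone. By histone type the members comprised 6 genes for H1, 18 for H2A, 18 for H2B, 12 for H3 and 13 for H4. H4bc24, formerly Hist1h2br, encodes an H2B in spite of its current symbol.

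Replication-dependent histone genes supply the core histones H2A, H2B, H3 and H4 and the linker histone H1 during S phase, when new DNA has to be packed into nucleosomes. They are short, mostly lack introns, sit in dense clusters, and their mRNAs end in a conserved stem-loop in place of a poly(A) tail. A few cluster genes encode testis variants that are used in male germ cells: H1f6 encodes the linker histone H1t, H2ac1 encodes TH2A and H2bc1 encodes TH2B. Spin1 binds nucleosomes that carry H3K4me3, the mark typical of active promoters.

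The cells were primary myoblasts, the dividing precursors of muscle fibers, of the strain labelled C57BL/6 (substrain C57BL/6 N in the methods). Preplating of limb muscle from mice 10 days old gave the cells, which were grown to subconfluence. Chromatin was precipitated with a custom antibody to Spin1 or with an antibody to H3K4me3 (so named in the sample title), and each antibody gave 1 library, called against an input library. There were thus no replicates, and no p-value could be given for any difference. Intervals are 95% Wilson intervals and cover counting error only. Since neighbouring members share peaks, they are not independent counts. The promoter was defined as TSS±1 kb. All 7 myoblast markers checked (Myod1, Myf5, Pax7, Des, Cdh15, Itga7 and Chrna1) had both peaks there, beside 56.6% of all protein-coding genes. Of 10 markers of immune, endothelial, germ line and liver cells, Dazl had both peaks, Cdh5 had H3K4me3 alone and the other 8 had neither.

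Nearly all members carried both peaks. A Spin1 peak lay at the promoter of 63 of 67 members (94.0%, interval 85.6% to 97.7%), beside 56.7% of all protein-coding genes. An H3K4me3 peak lay at 66 of 67 members (98.5%, interval 92.0% to 99.7%), beside 68.0% of all protein-coding genes. Both peaks were present at 63 members, beside 56.6% of all. The TSS base itself was inside a Spin1 peak at 63 members and inside an H3K4me3 peak at 64. When a peak was counted only with its center inside the promoter, 40 members (59.7%) had both, beside 45.1% of all protein-coding genes. Spin1 was then at 52 members (77.6%, beside 52.6%) and H3K4me3 at 49 (73.1%, beside 56.2%). Other protein-coding genes with single-exon transcripts, which resemble most members in structure, had a Spin1 peak in 259 of 2075 cases (12.5%) and H3K4me3 in 363 (17.5%). Neither peak was present at 1711 of them, and they were not matched to the members by expression.

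The members fell into 4 clusters, and the 4 exceptions without Spin1 lay in the Hist1 and Hist3 clusters. In Hist1 on chromosome 13, Spin1 was present at 51 of 54 members and H3K4me3 at 53. In Hist2 on chromosome 3, all 10 members had both peaks. In Hist3 on chromosome 11, H2aw had both and H2bu2 had H3K4me3 alone. H4f16, the single Hist4 gene on chromosome 6, had both, with a Spin1 score of 2224 and a Spin1 peak of 2286 bp. The score that MACS gives a peak is −log10 p against the input, multiplied by 10. It accumulates at 3100, and at or above that value lay 30.9% of all Spin1 peaks and 45.2% of all H3K4me3 peaks. Scores above 3100 also occurred, up to 3233 at other genes with a Spin1 peak. Differences among scores from 3100 upward can therefore not be read as an order of strength.

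**Figure D1:**
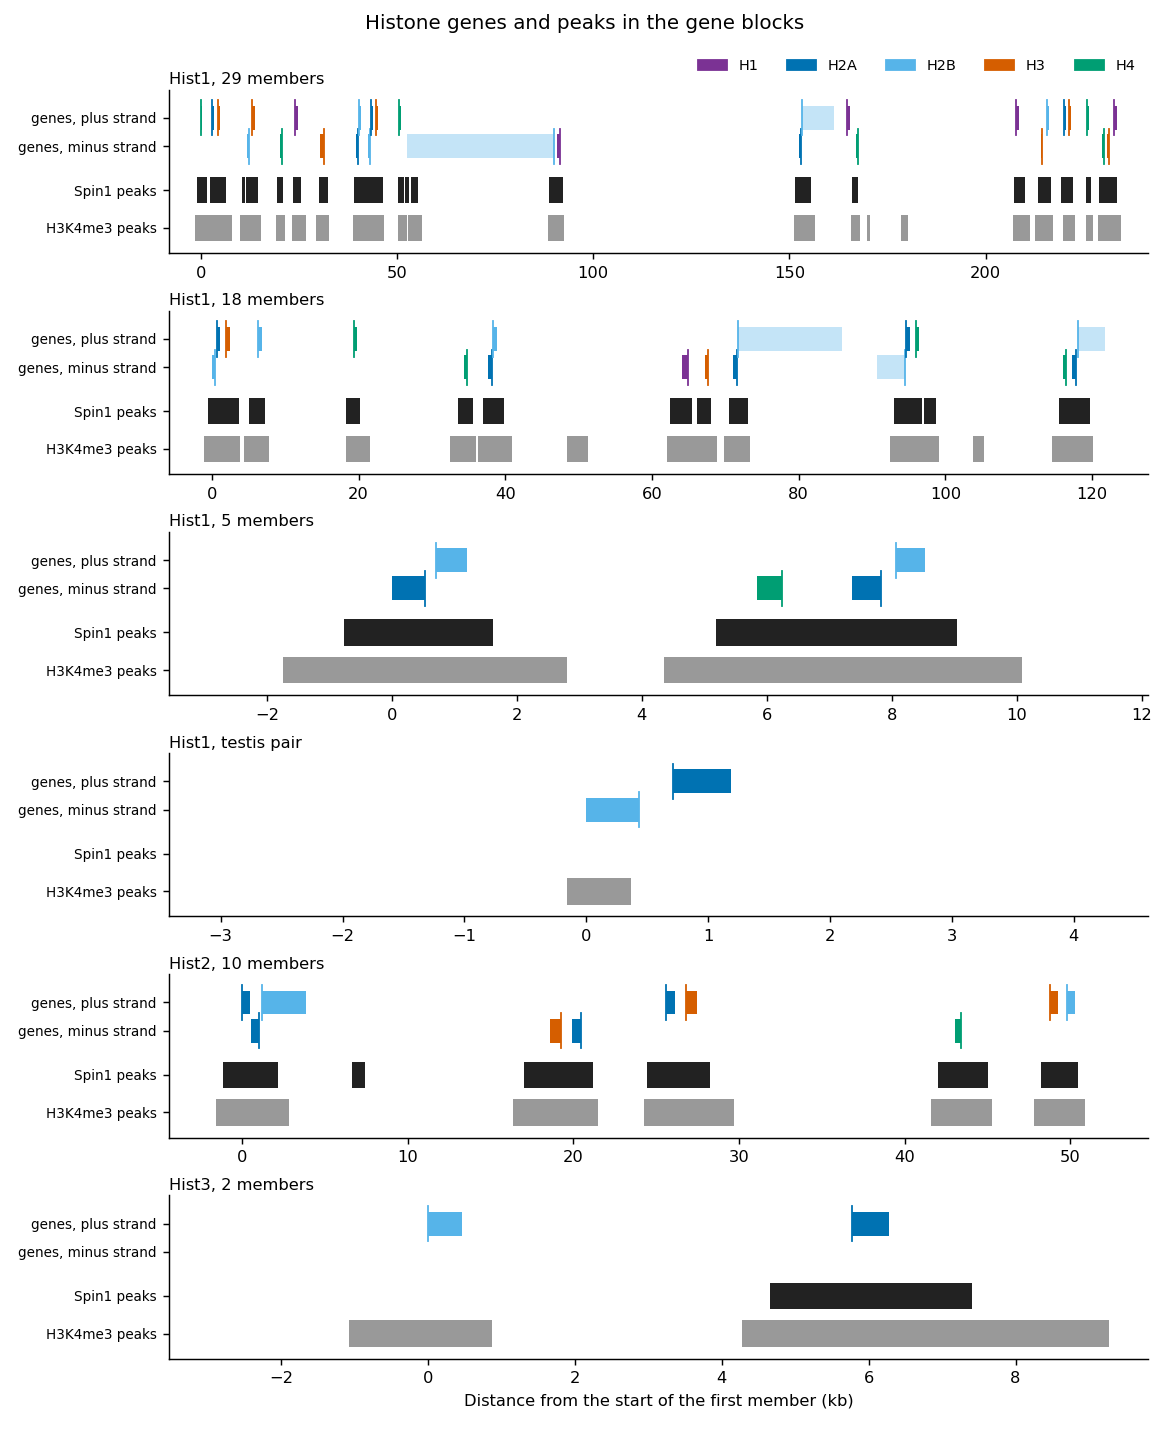
Members and peaks in 6 gene blocks, drawn by distance in kb from the start of the first member of each block. Genes are colored by histone type and placed by strand, with a thin line at the most upstream TSS; genes over 3 kb are pale. Spin1 peaks (black) and H3K4me3 peaks (grey) lie over the genes with few peaks between them, and the testis pair has no Spin1 peak.

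The Hist1 members lay in 4 blocks separated by more than 100 kb. The largest block held 29 members in 233.4 kb, where Spin1 peaks covered 21.5% of the sequence and H3K4me3 peaks 29.6%. A block of 18 members in 121.8 kb was covered to 24.6% by Spin1 and to 37.4% by H3K4me3. A compact block of H2ac12, H2bc12, H4c9, H2ac11 and H2bc11 spanned 8.54 kb and was covered to 58.1% by Spin1 and to 81.7% by H3K4me3. The fourth block was the testis pair H2bc1 and H2ac1. The 50.3 kb of Hist2 were covered to 31.8% by Spin1 and to 38.9% by H3K4me3. In the 3 blocks of 10 or more members, most of the sequence was outside peaks, as the map of genes and peaks shows.

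The testis variants stood apart from the other members. None of the 3 had a Spin1 peak, whereas 63 of the other 64 members did (98.4%, interval 91.7% to 99.7%). With 3 genes, the interval for the testis variants reached from 0.0% to 56.1%. H3K4me3 was present at all 64 other members and at 2 of the 3 testis variants. H2bc1 and H2ac1 shared 1 H3K4me3 peak at chr13:23933568-23934087, which was the narrowest and the weakest at any member. It was 520 bp wide with a score of 1583, and all 35 other H3K4me3 peaks at members scored at least 3100. This peak covered 84.0% of the H2bc1 gene and ended 69 bp short of the H2bc1 TSS and 350 bp short of the H2ac1 TSS, so that neither TSS was inside. The Spin1 peak nearest to H2bc1 was 169515 bp away.

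H1f6 had neither peak at its promoter. The nearest peaks on both lists belonged to the H4 gene H4c3 and began 1308 bp from the H1f6 TSS for Spin1 and 1044 bp for H3K4me3. Counting peaks at TSS±2 kb would therefore assign both to H1f6. Within the 29-member block H1f6 was the single gene without a peak, and its neighbours on either side, H2bc4 and H4c3, had both.

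The fourth member without Spin1 was H2bu2, an H2B gene of the Hist3 cluster and no testis variant under the rule used here. Its H3K4me3 peak at chr11:58947840-58949779 was 1940 bp wide, scored 3100 and covered the whole gene. The nearest Spin1 peak began 4656 bp away and belonged to the H2A gene H2aw, where Spin1 scored 3100 over 2750 bp and H3K4me3 spanned 4998 bp. H2bu2 was thus a gene with an H3K4me3 peak and no called Spin1 peak, as were 2381 of all 14274 protein-coding genes with H3K4me3. Of the H3K4me3 peaks at other promoters, 86.2% scored at least 3100, and their median width was 3078 bp. A peak below the calling threshold leaves no trace in the list, so a weaker Spin1 signal at H2bu2 or at the testis variants could not be assessed.

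The promoters of the H1 genes H1f4 and H1f6 are shown because one had both peaks and the other had neither. Each line gives the 130 bases before the TSS on the strand of the gene, from RefSeq on GRCm38.p6, for H1f4 chr13:23622559-23622688 on the minus strand and for H1f6 chr13:23695681-23695810 on the plus strand. Capitals mark the H1 box AAACACA, the CCAAT box and the TATAA box.
H1f4: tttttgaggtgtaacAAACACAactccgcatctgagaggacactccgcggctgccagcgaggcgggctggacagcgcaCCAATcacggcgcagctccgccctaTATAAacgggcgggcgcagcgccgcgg
H1f6: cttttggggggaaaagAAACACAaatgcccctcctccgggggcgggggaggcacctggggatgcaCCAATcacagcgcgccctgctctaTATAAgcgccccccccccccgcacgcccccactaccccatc

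Both H1 promoters hold the same 3 motifs in the same order. The H1 box AAACACA began 115 bases before the TSS in H1f4 and 114 in H1f6. CCAAT began 52 bases before the TSS in H1f4 and 65 in H1f6, and TATAA 27 and 41 bases before it. These letters were thus present both in the gene with peaks and in the gene without. The promoters differed in the observed to expected CpG ratio, with 0.994 in H1f4 and 0.45 in H1f6. It was 0.593 in H1f1, which had both peaks, and the part of CpG content was not tested. All 5 somatic H1 genes, which encode the linker histones of dividing cells, had both peaks. Spin1 scored 3100 at H1f1, 2606 at H1f2, 2332 at H1f3, 2866 at H1f4 and 3151 at H1f5. The peak of H1f1 (4706 bp) was shared with H4c1 and H3c1, that of H1f4 (3392 bp) with H2bc6, and H1f2 (2625 bp), H1f3 (1917 bp) and H1f5 (2903 bp) were alone under theirs.

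H2A and H2B form the dimer that joins the H3–H4 tetramer in the nucleosome, and in the clusters their genes often lie head to head. Spin1 was present at 17 of 18 H2A members and at 16 of 18 H2B members, and H3K4me3 at all 36, counting the peak beside H2ac1. There were 12 divergent H2A–H2B pairs, with 164 bp to 281 bp between the TSSs (median 210.5 bp). In 11 of the 12 pairs, 1 Spin1 peak and 1 H3K4me3 peak covered both TSSs. The exception was the testis pair H2bc1 and H2ac1, which was also the pair with the longest distance. Among the 11 pairs, the Spin1 score was 3100 or more in 8, and it was 2380.5 at H2ac12 and H2bc12, 2245 at H2ac15 and H2bc15 and 1589 at H2ac22 and H2bc22. In 1 further divergent pair, H2bc9 faced the H3 gene H3c7 at 608 bp, under 1 Spin1 peak with a score of 2827.

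All bases between the TSSs are shown for a pair with both peaks over both TSSs and for the testis pair, which had none there. The sequences are from GRCm38.p6, plus strand, at chr13:22035644-22035820 (177 bases) and chr13:23934157-23934436 (280 bases). Capitals mark CCAAT and the octamer ATTTGCAT on either strand, and TATAA between 45 and 20 bases before a TSS on the strand of that gene.
H2ac12/H2bc12: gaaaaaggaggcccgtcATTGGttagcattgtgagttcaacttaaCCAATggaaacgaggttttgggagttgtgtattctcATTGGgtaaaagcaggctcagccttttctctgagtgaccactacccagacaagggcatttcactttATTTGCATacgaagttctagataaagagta
H2ac1/H2bc1: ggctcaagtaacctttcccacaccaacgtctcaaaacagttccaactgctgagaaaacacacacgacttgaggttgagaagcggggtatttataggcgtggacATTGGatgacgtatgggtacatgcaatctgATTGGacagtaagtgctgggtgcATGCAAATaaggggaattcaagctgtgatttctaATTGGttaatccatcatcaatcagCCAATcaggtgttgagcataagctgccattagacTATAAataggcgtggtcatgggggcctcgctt

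The pair with Spin1 holds 3 CCAAT motifs and 1 octamer, and the testis pair holds 4 CCAAT motifs, 1 octamer and a TATAA before H2ac1. The testis pair also holds a TATAA on the strand of H2bc1, outside the stretch searched for that gene. AAACACA, which is not marked here, was found before H2ac1 and H2bc1 but not before H2ac12 or H2bc12. Over the H2A members with a Spin1 peak the median score was 3100 (range 1589 to 3149), and over the H2B members it was also 3100 (range 1589 to 3149). H2bc6 is an H2B gene with start sites at both ends of a 37455 bp gene. Its upstream TSS shared the peak of H1f4, and the TSS next to its coding exon lay in a separate Spin1 peak at chr13:23584730-23586418 with a score of 658. The score of a member is that of the peak holding most of its TSSs and, among equals, the highest score.

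H3 genes encode the histone that itself carries H3K4me3. All 12 H3 members had both peaks, with a median Spin1 score of 3090 and a range from 1059 at H3c11 to 3100. H3c11 lay alone under a Spin1 peak of 1919 bp, although 1 H3K4me3 peak of 6865 bp spanned both H3c11 and the neighbouring H1f5. H3c4 had a Spin1 score of 2074, directly beside a wider Spin1 peak with a score of 3100 that covered the TSSs of H2ac8, H2bc8, H2bc7 and H2ac7.

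All 13 H4 members had both peaks, but their Spin1 scores were the lowest of the 5 types as a group. The median was 2008 and the range 326 to 3149. The lowest score was 326 at H4c2, followed by 499 at H4c3, 731 at H4c4, 1059 at the H3 gene H3c11 and 1090 at H4c11. Counting only the higher-scoring 50% of peaks in each list removed Spin1 from these 5 genes and from H4c6 (1217), whereas all 66 members with H3K4me3 kept it. At each of these 6 genes the H3K4me3 peak scored 3100. Beside a median H3K4me3 width of 3078 bp at other promoters, 4 of the 6 had narrower H3K4me3 peaks, with 1777 bp at H4c2, 2079 bp at H4c3, 2333 bp at H4c6 and 2485 bp at H4c4. The other 2 had wider ones, with 3265 bp at H4c11 and 6865 bp at H3c11.

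Promoters of the H4 genes with the lowest Spin1 scores and of H2bu2 are shown for comparison. Each line gives 130 bases before the TSS from RefSeq on GRCm38.p6, at chr13:23756807-23756936 on the plus strand for H4c2, chr13:23698459-23698588 on the minus strand for H4c3 and chr11:58948781-58948910 on the plus strand for H2bu2. Capitals mark the CCAAT box, the TATAA box and the letters GGTCCG of the H4 promoter element.
H4c2: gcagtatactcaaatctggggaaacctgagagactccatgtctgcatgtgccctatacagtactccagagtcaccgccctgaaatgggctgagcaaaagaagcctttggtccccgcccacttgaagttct
H4c3: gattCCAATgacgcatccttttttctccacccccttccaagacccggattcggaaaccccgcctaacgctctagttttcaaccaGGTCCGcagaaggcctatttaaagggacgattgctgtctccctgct
H2bu2: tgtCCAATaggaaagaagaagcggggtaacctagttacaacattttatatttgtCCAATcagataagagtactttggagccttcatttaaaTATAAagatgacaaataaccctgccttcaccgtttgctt

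H4c2 held none of the motifs searched, H4c3 held GGTCCG 46 bases before the TSS, and H2bu2 held a TATAA 39 bases before it with CCAAT farther upstream. The motif GGTCCG was also missing in H4c8 and H4c1, so that the 3 H4 promoters without it belonged to genes with Spin1 scores of 326, 2008 and 3100.

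Spin1 scores were lower at members that did not share their peak. The 16 members alone under their Spin1 peak had a median score of 1983 (range 326 to 3151), and 2 of them reached 3100. The 47 members whose peak also overlapped the promoter of another member had a median of 3100 (range 1589 to 3149), and 32 of them reached 3100. Of the 16 members alone, 9 were H4 genes, with a median of 1217 and a maximum of 2527 at H4c14. The 4 H4 genes that shared a peak, H4c1, H4c9, H4c17 and H4c18, scored between 3100 and 3149, and H4c17 and H4c18 are near-identical copies. Each H4 gene that shared took the score of a peak that also overlapped members of other histone types. Lone and sharing H4 genes were therefore not compared alike, and the same split was not made at other promoters. H1f5 and H2aw were the members alone under their peak that reached 3100. Peaks of lone members were narrower (median 2177.5 bp) than those of members that shared (median 3858 bp), and the part of peak width in the scores was not tested.

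**Figure D2:**
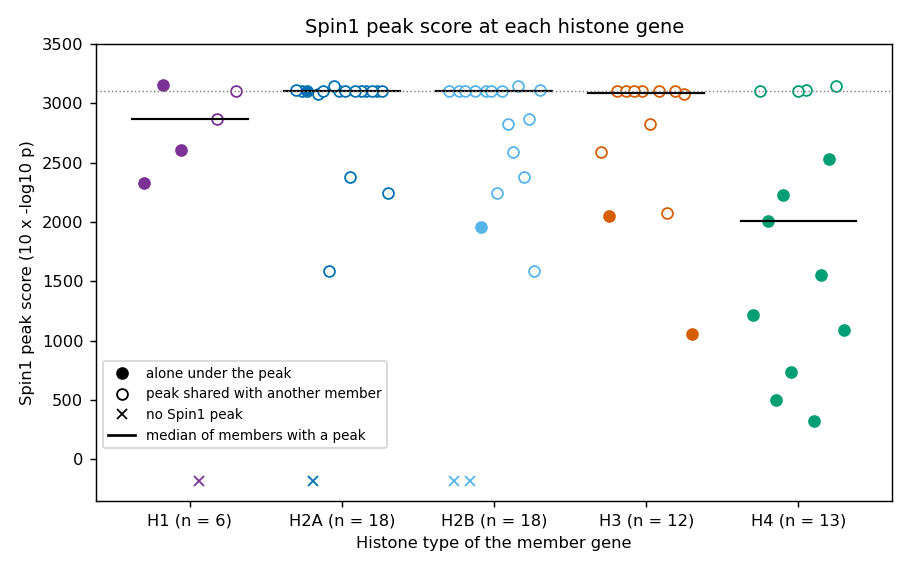
Spin1 peak score (−log10 p multiplied by 10) of each member, by histone type. Filled points are members alone under their peak, open points share it with another member, crosses below 0 have no Spin1 peak, black bars are medians of members with a peak and the dotted line is the score of 3100. The lone H4 genes spread from 326 to 2527, while 13 of 17 H2A, 9 of 16 H2B and 6 of 12 H3 genes with a peak sit at or above 3100.

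Over all members with a Spin1 peak, 34 of 63 (54%) were at or above 3100, beside 48.8% of the 11838 other protein-coding genes with a Spin1 peak. For the other genes the highest score of any peak at the promoter was taken. By that rule H3c4, whose promoter also overlaps a peak with a score of 3100, would be added to the members. Counted by peak, the order turned. The members lay under 37 distinct Spin1 peaks, of which 14 (37.8%) reached 3100, beside 44.7% of the 11351 Spin1 peaks at other protein-coding promoters. All 7 Spin1 peaks at 3 or more members reached 3100, and so did 2 of the 17 at 1 member, so that the share by gene lay above the share by peak. For H3K4me3, 35 of 36 distinct peaks (97.2%) reached 3100, beside 86.2% of 13811 peaks elsewhere.

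Peaks at members were described by width and by the number of members under them. The median Spin1 width was 2750 bp (range 1142 to 5189 bp), beside 2183 bp at other promoters. The 17 Spin1 peaks at the promoter of 1 member had a median of 2144 bp, the 13 peaks at 2 members 3153 bp and the 6 peaks at 3 members 4014 bp. The widest Spin1 peak, of 5189 bp, overlapped the promoters of H2ac8, H2bc8, H2bc7, H2ac7 and H3c4. Next in width was the peak of 4706 bp over H4c1, H3c1 and H1f1. The median H3K4me3 width was 4180 bp (range 520 to 9372 bp), beside 3078 bp at other promoters. It was 3335 bp for the 15 peaks at 1 member, 4556 bp for the 13 peaks at 2 and 5720 bp for the 7 peaks at 3. A wider peak overlaps more promoters by its width alone, and peaks at other promoters were not split by the number of genes, so that these medians are a description only.

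**Figure D3:**
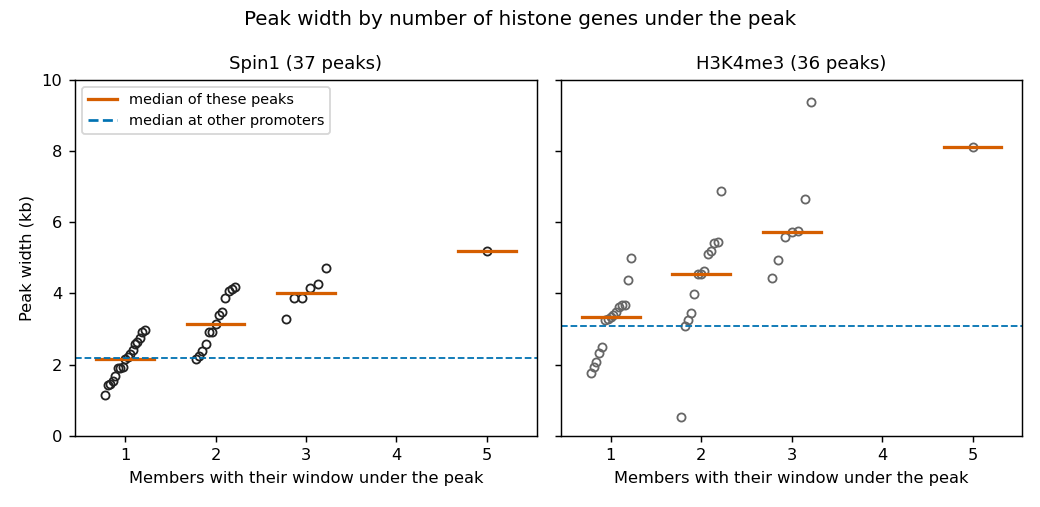
Width in kb of each distinct Spin1 peak (left, 37 peaks) and H3K4me3 peak (right, 36 peaks) against the number of members whose TSS±1 kb it overlaps. Orange bars are medians and the dashed line is the median at other protein-coding promoters. Spin1 peaks at 1 member have a median of 2144 bp, next to 2183 bp elsewhere, and those at 3 members have a median of 4014 bp.

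Spin1 peaks were nested in H3K4me3 peaks. Of the 37 Spin1 peaks at members, 36 lay wholly inside 1 H3K4me3 peak (97.3%), beside 91.8% at other promoters. The exception was the peak over H2ac4 and H3c2, which extended beyond the H3K4me3 peak at one end. Of the 36 H3K4me3 peaks, 31 held 1 Spin1 peak of a member, 3 held more than 1, and 2 held none. The 2 without Spin1 were those at H2bu2 and at the testis pair.

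Peaks extended to both sides of the histone TSS. Where the TSS was inside a Spin1 peak, the peak reached a median of 1471 bp upstream and 1403 bp downstream of members, beside 753 bp upstream and 1431 bp downstream of other genes. For H3K4me3 the medians were 2216 bp upstream and 2165 bp downstream of members, beside 1034 bp and 2027 bp. Members and other genes thus differed more in upstream than in downstream reach. However, 47 of the 63 members with Spin1 shared their peak with another member. In 11 H2A–H2B pairs, 1 Spin1 peak covered both TSSs, so the upstream reach of one gene was the downstream reach of the other. Other genes were not split by such neighbours, and the part of neighbours in the upstream reach was not tested. At 1100 bp upstream, 70.3% of the 64 members other than testis variants were inside a Spin1 peak, beside 28.6% of 11830 other genes with both peaks. At 900 bp downstream the shares were 92.2% and 83.0%.

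**Figure D4:**
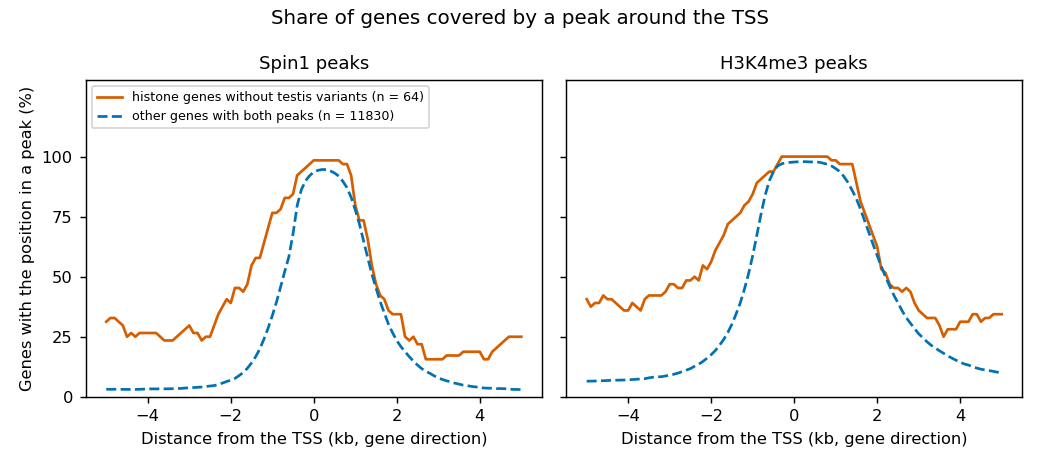
Share of genes (in %) whose position at a given distance from the TSS, in kb and in gene direction, lies inside a Spin1 peak (left) or an H3K4me3 peak (right). The orange line is the 64 members other than testis variants and the dashed line 11830 other genes with both peaks. The curves run close downstream to about 2 kb and part upstream, where 70.3% against 28.6% are covered by Spin1 at 1100 bp. Many members share a peak with a neighbouring member, and the curves do not separate these.

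In most members, a peak covered the whole gene. The median gene length was 492 bp, beside 17862 bp for other protein-coding genes, and 62 members had only single-exon transcripts. A Spin1 peak covered the entire gene in 57 of 67 members (85.1%), beside 0.865% of other protein-coding genes, 2.84% of other single-exon genes and 2.06% of other genes shorter than 1 kb. H3K4me3 covered 58 members entirely (86.6%), beside 2.54%, 6.51% and 3.21%. These shares also count genes without a peak, so they mix the presence of a peak with its extent. Of the 2075 other single-exon genes, 259 had a Spin1 peak at the promoter and 59 were wholly covered by Spin1. Of the other genes shorter than 1 kb, Spin1 covered 33 over more than 50% of their length and 27 of these wholly. Of the 10 members not wholly covered by Spin1, 4 had no Spin1 peak. The other 6 were H2B genes with long transcripts, namely H2bc21, H2bc22, H2bc23, H4bc24, H2bc6 and H2bc4, covered to between 9.10% (H2bc6) and 45.4% (H4bc24).

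The promoters shared sequence features by histone type. RefSeq promoter sequences were matched for 62 members, and not for H2bc4, H2bc21, H3c1, H3c7 and H4c14. Motifs were searched in the 250 bases before the TSS on both strands, except TATAA, which was searched from 45 to 20 bases before the TSS on the gene strand. None of the motifs contains another. CCAAT was found in 51 members (82.3%), beside 36.5% of 16791 other promoters, and at least 2 copies in 69.4%, beside 11.9%. All H1, H2A and H2B promoters matched held CCAAT, as did 8 of 10 H3 promoters and 3 of 12 H4 promoters. TATAA was found in 22 members (35.5%), beside 4.73%, and in 5 of 6 H1 promoters. The octamer ATTTGCAT was found in 13 members (21%), beside 1.55%, of which 7 were H2A and 6 were H2B genes. AAACACA was found in 9 members (14.5%), beside 5.39%, of which 5 were H1 genes. GGTCCG was found in 11 members (17.7%), beside 8.72%, of which 9 were H4 genes. The median GC content of the promoter window was 45.3%, beside 56.7% of others, and the observed to expected CpG ratio was 0.748, beside 0.596. The genes of a divergent H2A–H2B pair share bases before their TSSs, so that 1 motif could be counted for both. The 1 octamer between H2ac12 and H2bc12 was counted for each gene, for example. Motif counts of members are thus not independent. A match is a string of letters and not evidence of a bound factor.

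The conserved 3′ stem-loop was found in members with and without Spin1. A perfect stem of 6 bases beginning with GG and a loop of 4 bases beginning with TT, within 150 bases after the stop codon, was present in 63 of 67 members (94.0%) and in 12 of 20933 other genes (0.0573%). It began a median of 30 bases after the stop codon (range 21 to 58). All 3 testis variants and H2bu2 had one. The forms are shown, each for 1 gene, because they divide by histone type. Each line gives the stem and loop in capitals as DNA letters, with 5 flanking bases on either side.
H1f4: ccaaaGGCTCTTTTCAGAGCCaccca
H1f6: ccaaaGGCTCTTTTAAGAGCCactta
H2ac20: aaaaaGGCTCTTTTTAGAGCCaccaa
H4c12: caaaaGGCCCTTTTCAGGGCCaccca
H4c9: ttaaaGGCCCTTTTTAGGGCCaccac
H4c2: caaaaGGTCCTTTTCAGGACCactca

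These lie on GRCm38.p6, capitals only, at chr13:23621782-23621797, chr13:23696525-23696540, chr3:96220418-96220433, chr13:21750150-21750165, chr13:22040966-22040981 and chr13:23757366-23757381, in the order of the lines. The form of H1f4 was shared by 41 members of the types H1, H2A, H2B and H3, that of H1f6 by 9, and that of H2ac20 was found in that gene alone. The form of H4c12 was shared by 8, that of H4c9 by 2 and that of H4c2 by 2, and all of these were H4 genes. No H4 gene had a form of the other types. H2ac22, H2bc21, H3c8 and H4c1 had no perfect match. In a looser search, chosen after this was seen, the loop only had to begin with T and 1 unpaired stem position was allowed. The count was then 66 of 67 members and 1.3% of other genes, and H2bc21 remained without one.

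Some members are near-identical copies, so that reads may not have been assigned to one of them with certainty. At H2ac23, H2ac24, H2bc23 and H4bc24, every 32-base word of TSS±1 kb occurred elsewhere in the genome. The share was 95.8% at H4c17, 95.7% at H4c18, 80.6% at H3c14, 79.6% at H3c15, 56.7% at H2ac18 and 55.0% at H2ac19. These 10 members all had both peaks, and their peaks are uncertain as to the copy. Without them, Spin1 was present at 53 of 57 members (93.0%) and H3K4me3 at 56 (98.2%). The median share of repeated words was 13.3% over H4 members, 33.8% over H2A, 33.6% over H2B, 25.6% over H3 and 8.73% over H1 members with a Spin1 peak.

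Other histone genes and the factors that act on histone genes were counted for comparison. Of 14 histone genes outside the rule, 11 had both peaks, including H3f3a and H3f3b for the replication-independent H3, H2az1, H2ax, Cenpa and H1f0. H1f8, the oocyte linker histone, had an H3K4me3 peak of 931 bp with a score of 330 and no Spin1. H1f7 and Hils1, linker histones of spermatids, had neither. The germ line linker histones H1f6, H1f7, H1f8 and Hils1, grouped after their values were seen, were thus all without Spin1, inside and outside the clusters. All 12 matched factors of histone gene transcription and histone mRNA 3′ end formation had both peaks, among them Npat, the coactivator of histone genes in S phase, Hinfp, a factor of H4 promoters, and Slbp, the stem-loop binding protein. Spin1 scored 3100 at Npat, 2568 at Hinfp and 2740 at Slbp. All 7 histone chaperones, such as Nasp, Asf1a and Chaf1a, had both peaks. Among all protein-coding genes 56.6% had both, and these lists were not compared with other genes of similar expression.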

How the data were processed

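ChIP-seq libraries of Spin1 and of H3K4me3 from primary myoblasts were used, 1 per antibody. The authors mapped reads to mm10 with Bowtie 2, called peaks with MACS 1.4.2 against an input library and kept those within a false discovery rate of 1%. What they deposited is the position of each peak and the score that the authors' MACS run gave it, −log10 p multiplied by 10. The lists held 17106 Spin1 and 30763 H3K4me3 peaks. The lists give no read counts, so depth is unknown and weak peaks may be missing. Scores depend on depth, input, PCR duplicates and peak width. Reads from near-identical copies may have been placed at any of them.

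Peaks were compared with curated transcripts of RefSeq annotation release 108.20200622 on GRCm38.p6, in 1-based coordinates, on 21 chromosomes. An overlap of 1 bp with TSS±1 kb was counted. Blocks were split at gaps over 100 kb. Non-unique sequence was the share of 32-base words found elsewhere in the genome on either strand. The overlap code was tested on simulated peaks. Tables were handled with pandas 2.3.3 and NumPy 2.4.6 under Python 3.11.15, intervals were computed with SciPy 1.17.1 and figures were drawn with matplotlib 3.10.9.

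Genes named were members lacking a peak, testis variants, H1 genes, members outside Hist1, the 5 with the lowest Spin1 scores, those under the widest Spin1 peaks and those with mostly non-unique windows. Others illustrate a count and were named after their values were seen. The members, lists and marker genes were chosen with earlier results of these data known. From a list of 13 factors, 12 symbols matched. Motifs and stem-loops were searched in the genome and the RefSeq promoter table, and 62 of 62 matched promoters began at a curated TSS. The 22 RNA-seq samples of Spin1-deficient and control muscle were not used here. Alternatives varied the promoter window, the transcripts, the peak list, the overlap and the member list.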

Additional observations from a re-analysis of the deposited data

How the results depend on the processing

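Of 44 alternatives computed, 43 left the counts within 1.5 times and the median widths within 1 SD of the peak widths. These limits are wide, so passing them shows little. A fall of the H3K4me3 count from 66 to 49 members stayed within them, and the SD was 1010 bp for Spin1 and 1778 bp for H3K4me3. With peak centers required inside the promoter, 40 members had both peaks in place of 63, with Spin1 at 52 and H3K4me3 at 49, and the cause was not tested. Over the full list of members the Spin1 count ranged from 52 to 64 and the H3K4me3 count from 49 to 67. The highest counts came from TSS±2 kb, which added H1f6. The higher-scoring 50% of peaks left Spin1 at 57 members. Taking the widest peak per gene gave median widths of 3392 bp for Spin1 and 4933 bp for H3K4me3. No paired analysis was possible because each antibody gave a single library, and the shared replicate numbers in the labels belong to RNA-seq samples that were not used. With peak lists alone, differences in signal strength below the calling threshold or from a score of 3100 upward could not be read. Counts of neighbouring members under 1 peak are not independent.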

Other observations

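Between the first and the last Hist1 member lay 49 other protein-coding genes with a curated transcript, nearly all in the gaps between the blocks. Spin1 was present at 4 of these 49 (8.16%, 95% Wilson interval 3.22% to 19.2%), namely Zfp184, Pom121l2, Zfp322a and Abt1, beside 51 of 54 Hist1 members. H3K4me3 was present at 7, which also included Btn1a1, Btn2a2 and Hfe. None of 36 vomeronasal receptor genes (Vmn1r) in the gaps had either peak. Of the 13 remaining genes, 4 had Spin1 (30.8%, interval 12.7% to 57.6%), beside 56.7% of all protein-coding genes. H3K4me3 was at 7 of the 13 (53.8%, interval 29.1% to 76.8%), beside 68.0% of all. Hfe, a regulator of iron uptake, was the single other coding gene within a block, and it had an H3K4me3 peak of 1859 bp with a score of 3100 and no Spin1 peak.

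Within the blocks, 4 Spin1 peaks lay at no member promoter, with scores of 180, 561, 107 and 115. The peak with a score of 561 was 629 bp from H4c17, in one of the near-identical copies. Of 4 H3K4me3 peaks at no member promoter, the one with a width of 2841 bp and a score of 3100 was 1120 bp from the long noncoding RNA gene Gm11274, 1 was at Hfe, 1 was 552 bp from Hfe with a score of 157, and 1 was 7371 bp from H4c17 with a score of 1323.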
